A study of Drosophila melanogaster with 2 samples.

Results

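Promoters of non-coding RNA genes that lie away from protein-coding start sites were examined in chromatin immunoprecipitation followed by sequencing (ChIP-seq) for CG11723, an uncharacterised Drosophila melanogaster protein. The regions were chosen by position. A region entered when its summit, the point of highest signal, lay within 500 bp of a transcription start site (TSS) of a gene whose symbol begins with lncRNA: or asRNA:, and more than 500 bp from every protein-coding TSS. This gave 704 of the 30000 regions that the authors listed before thresholding for both replicates pooled, and they are called non-coding promoter regions here. Of these, 631 lay nearest to an lncRNA gene and 73 nearest to an asRNA gene.

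The material was whole embryos of both sexes, collected from 0 to 16 hours, from transgenic flies that stably express CG11723 with GFP at its C-terminus. Chromatin was sonicated to 200 to 800 bp and precipitated through the tag with an antibody against GFP. The series has 1 group with 2 biological replicates, numbered 1 and 3, and samples of input chromatin or untagged flies were not analysed here. The lists hold no read numbers, so the depth of each sample is unknown here. Whole embryos mix many cell types, so a region bound in few cells and a region bound weakly in many cannot be told apart. With 1 group of 2 samples no test over samples could be made, regions are not replicates, and the 95% intervals given below cover counting error only.

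Long non-coding RNAs (lncRNAs) are transcripts with little or no coding capacity that are usually made by RNA polymerase II from promoters of their own. In FlyBase nomenclature the prefix asRNA: names a transcript that runs antisense to another gene, and most genes of both classes carry only a CR number. A few are well studied, among them roX1 and roX2, which take part in dosage compensation of the X chromosome, and Hsromega, a nuclear RNA induced by heat shock. Many non-coding genes lie close to coding genes, and a summit at a start site shared by both cannot be assigned to either, which is why regions near a coding TSS were set apart.

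The DNA under the strongest summits differed visibly in composition, and windows of 50 bp on either side of 6 summits are shown for that reason. They are the highest in signal outside an arm whose sequence is not shown here, and each is written 5′ to 3′ on the strand of the non-coding gene, in dm6 coordinates from the RefSeq Release 6 sequence. Capitals mark TATAAA, the core of the TATA box, and no other of 11 searched words occurs in these 6 windows.
lncRNA:CR31840, 2L:14024027-14024127, minus strand: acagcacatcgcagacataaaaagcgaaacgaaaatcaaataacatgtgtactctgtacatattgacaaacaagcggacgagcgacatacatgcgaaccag
lncRNA:CR31044, 3R:29214392-29214492, plus strand: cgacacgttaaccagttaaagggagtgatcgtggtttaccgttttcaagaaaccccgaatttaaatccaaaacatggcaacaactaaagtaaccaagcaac
asRNA:CR44429, X:15298413-15298513, minus strand: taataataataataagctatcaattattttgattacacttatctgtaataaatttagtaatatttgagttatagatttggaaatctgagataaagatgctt
lncRNA:CR46036, 3R:17700496-17700596, plus strand: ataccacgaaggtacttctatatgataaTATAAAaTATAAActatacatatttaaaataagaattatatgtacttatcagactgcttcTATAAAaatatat
lncRNA:CR43626, 3L:3250139-3250239, plus strand: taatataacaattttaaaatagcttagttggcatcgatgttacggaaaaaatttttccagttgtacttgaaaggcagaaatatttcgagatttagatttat
lncRNA:CR43644, 3R:26021258-26021358, minus strand: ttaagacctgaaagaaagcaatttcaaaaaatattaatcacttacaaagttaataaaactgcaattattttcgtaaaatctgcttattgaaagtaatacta

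The GC content of these windows was 41.6% at lncRNA:CR31840 and 40.6% at lncRNA:CR31044. It was 19.8% at both asRNA:CR44429 and lncRNA:CR46036, 26.7% at lncRNA:CR43626 and 22.8% at lncRNA:CR43644. Among these 6 windows the pair of highest signal was near the median of all pooled regions, 40.6%, and the other 4 were far richer in A and T. On the arm not shown, lncRNA:CR44339, second in signal among all members, had 25.7% and lncRNA:CR44810 had 31.7%. High signal thus did not go with a GC content near the median in general.

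Hsromega is shown because it was the only gene of a list of characterised non-coding RNAs with a region at a TSS in the authors' final list. Its 2 regions overlapped, at 21296150 to 21296339 and 21296266 to 21296705 on 3R, and only the annotated TSS nearest to each summit differed. Their windows follow. Capitals mark CACAGTG.
lncRNA:Hsromega at +157 bp, 3R:21296234-21296334, plus strand: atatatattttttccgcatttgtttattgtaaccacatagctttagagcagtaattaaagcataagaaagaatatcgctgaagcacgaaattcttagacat
lncRNA:Hsromega at -135 bp, 3R:21296436-21296536, plus strand: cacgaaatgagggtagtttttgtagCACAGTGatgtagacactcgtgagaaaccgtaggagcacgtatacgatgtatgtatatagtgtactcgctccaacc

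Of the 704 non-coding promoter regions, 113 were also in the authors' final list. That list was made with the irreproducible discovery rate (IDR), a measure of how well the ranks of regions repeat between replicates. This is 16.1% (13.4 to 19.0%, exact binomial), against 12.9% of all 30000 pooled regions. The share was 27.0% (26.0 to 28.1%) for the 6744 protein-coding promoter regions and 8.58% (8.21 to 8.95%) for the 22358 distal regions, whose summits lay more than 500 bp from every TSS. Non-coding promoter regions were therefore between coding promoters and distal regions, and the 3 intervals did not overlap. A further 292 pooled regions lay near a non-coding and a coding TSS at once and were not counted as members; 91 of them were in the IDR list (31.2%, 25.9 to 36.8%).

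The order was the same in each replicate's own list. Among the 3869 regions of highest signal of replicate 1 stood 17.8% of its non-coding promoter regions, 24.1% of its coding promoter regions and 8.76% of its distal regions. In replicate 3 the shares were 14.7%, 31.9% and 7.68% in the same order. The gap to coding promoters was wider in replicate 3 than in replicate 1, and the gap to distal regions was narrower.

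The IDR list held exactly the 3869 pooled regions of highest signal, so that being in it means a pooled signal of at least 88.8. The signal is the authors' measure of enrichment, with a scale that the sources used here do not state, and it serves only to rank regions within a list. Over all members the median signal was 34.1 (17.2 to 994), against 48.4 for coding promoter regions, 28.4 for distal regions and 31.0 for all pooled regions. Within the IDR list the non-coding promoter regions had a median of 163 (95% interval 137 to 186), close to the 159 of coding promoters, while distal regions had 134 (130 to 137). Members made up 3.0% of the 500 strongest pooled regions, 4.0% of the next 500 and 1.97% of those ranked beyond 20000.

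Regions at asRNA genes were in the IDR list in 16 of 73 cases (21.9%, 13.1 to 33.1%) and those at lncRNA genes in 97 of 631 (15.4%, 12.6 to 18.4%), intervals that overlap. The annotation holds 2450 genes with these prefixes, and 755 had a pooled region at a TSS. Of these, 546 were the nearest non-coding gene of a member. For members in the IDR list these were 86 lncRNA and 15 asRNA genes. Most had a single such region, 10 had 2, and lncRNA:CR43626 had 3.

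The strongest non-coding promoter region lay at lncRNA:CR31840 on arm 2L, 22 bp downstream of its TSS, with a pooled signal of 994 (rank 11 of all regions), 610 in replicate 1 (rank 9) and 383 in replicate 3 (rank 31). The next was at lncRNA:CR44339 on arm 2R, at -179 bp, where negative positions are upstream, with 914 (rank 19), 517 in replicate 1 (rank 18) and 380 in replicate 3 (rank 35). The third, at lncRNA:CR31044 on 3R and at -120 bp, had 846 (rank 30), 489 (rank 23) and 349 (rank 53) in the same order. These 3 were the members among the 100 strongest regions of the pooled list, and all 3 were near the top in both replicates. Their nearest coding start sites were 2924 bp away at hll, 4194 bp at Psc, which encodes a Polycomb group protein, and 5730 bp at eEF1gamma, which encodes a subunit of a translation elongation factor.

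A clear step followed, and the members ranked 4 to 15 had pooled signals of 320 to 563. asRNA:CR44429, in an intron of gce and antisense to it, had 563 pooled, 299 in replicate 1 and 265 in replicate 3; gce encodes a juvenile hormone receptor. lncRNA:CR46036, in an intron of osa and antisense to it, had 531, 278 and 267; osa encodes a subunit of the Brahma chromatin remodelling complex. Their ranks were 144 and 179 in replicate 1 and 125 and 118 in replicate 3, so both stood among the strongest regions of each list. lncRNA:CR43626 had 506, 241 and 272, and lncRNA:CR44810, 4535 bp from slbo, the fly C/EBP gene, had 466, 212 and 248. In the list of replicate 3 these 2 ranked 107 and 147, higher than their ranks of 250 and 342 in replicate 1.

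lncRNA:CR43644 had 464 pooled, 268 in replicate 1 and 193 in replicate 3, and its summit was 515 bp from E(spl)m3-HLH, a Notch-responsive repressor gene. lncRNA:CR42657 had 418, 261 and 154, with the TSS of nej, the gene of the histone acetyltransferase CBP, 650 bp away. With asRNA:CR44429, 546 bp from the TSS of gce, these were the members of this group with a coding TSS within 1000 bp. lncRNA:CR45541 had 448, 234 and 213, 1755 bp from Hex-A, a hexokinase gene, and lncRNA:CR44676 had 410, 222 and 192 with its nearest coding TSS 8399 bp away. lncRNA:CR44363, with CACAGTG within 50 bp of its summit, had 328, 221 and 113, and was the lowest of these 5 in replicate 3.

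**Figure D1:**
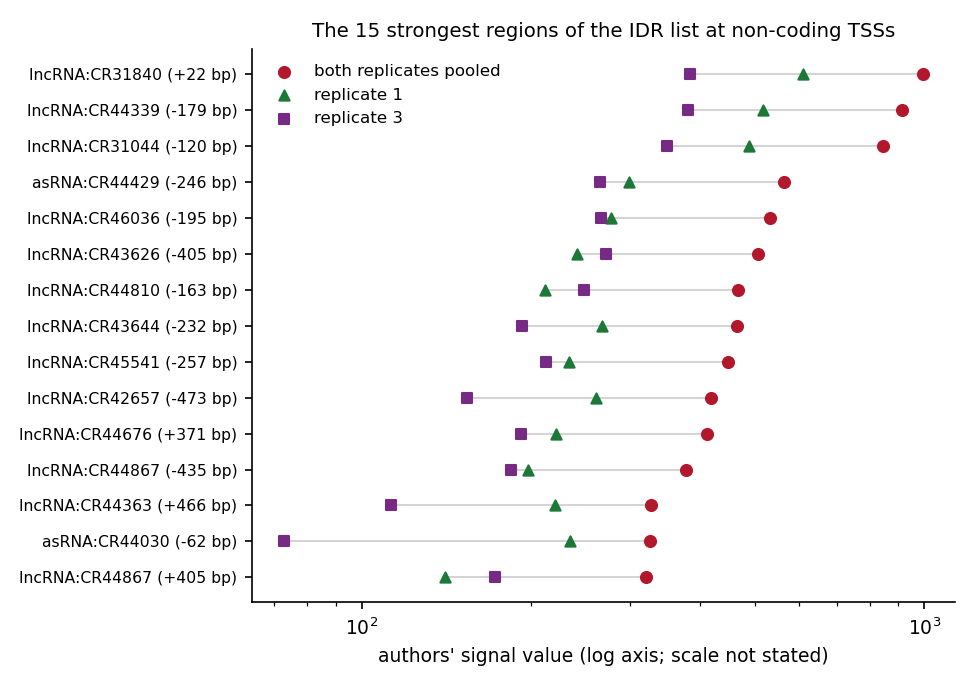
Authors' signal value (log axis, scale not stated) of the 15 non-coding promoter regions of highest pooled signal, with the summit position relative to the TSS beside each gene; circles are both replicates pooled, triangles replicate 1 and squares replicate 3. The pooled signals run from 320 to 994, the 3 highest stand apart from the rest, and asRNA:CR44030 has 235 in replicate 1 (rank 267) and 72.8 in replicate 3 (rank 1769).

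The beat-Ib gene, which encodes a cell-surface protein of the axon guidance Beat family, held 4 IDR members in its introns. At lncRNA:CR44867, antisense to it, the regions at -435 and +405 bp had pooled signals of 378 and 320. The first had 197 in replicate 1 and 185 in replicate 3. The second had 141 in replicate 1 and 173 in replicate 3. At lncRNA:CR44868, a gene named after its values were seen, the regions had 211 at -261 bp and 90.9 at +439 bp. The weaker of these stood at rank 13441 in replicate 1 and rank 1791 in replicate 3, and was high in replicate 3 alone, where the matched summit lay 234 bp away. At both genes the summits flanked the start site instead of covering it.

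lncRNA:CR43626, the gene with 3 IDR members, showed unequal agreement of replicates. Beside the strong region at -405 bp, a second region at another TSS (-382 bp) had 110 pooled, 18.2 in replicate 1 and 79.1 in replicate 3. Its rank was 20059 in replicate 1 and 1556 in replicate 3. The third, at -183 bp, had 104 pooled, 97.7 in replicate 1 and 24.2 in replicate 3. One of the weaker pair was thus high in replicate 3 and the other in replicate 1, while the strong region was high in both.

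Around lncRNA:CR44619, named after its values were seen, the strongest summits of the pooled list lay just beyond the 500 bp limit. Its member, at -339 bp on the X chromosome, had a pooled signal of 248, 41.5 in replicate 1 (rank 6531) and 461 in replicate 3 (rank 18). A second summit in the same region, at -549 bp, had 912 (rank 20), and another region at +503 bp had 674 (rank 65), both in the IDR list. In replicate 3 the summits at -339 and -549 bp matched the same region, so 461 is not a separate value for each. The summit of that replicate 3 region lay within 100 bp of the one at -339 bp, inside the limit. Such a stronger summit within the same region occurred for 3 of the 113 IDR members.

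The 16 asRNA regions of the IDR list belonged to 15 genes, and their pooled signals ran from 89.3 to 563. After asRNA:CR44429, the strongest were asRNA:CR44030 with 325 and 237 at its 2 regions, asRNA:CR45908 with 280 and asRNA:CR43425 with 264. asRNA:CR45908 had 126 in replicate 1 and 142 in replicate 3, while asRNA:CR43425, in a UTR exon of unc-13, a synaptic vesicle priming gene, had 203 in replicate 1 and 60.8 in replicate 3. The ranks were 972 in replicate 1 and 553 in replicate 3 for asRNA:CR45908, and 382 and 2260 in that order for asRNA:CR43425. Further regions with 151 to 236 lay at asRNA:CR45281 (Alp6 nearest), asRNA:CR46044 (Septin2), asRNA:CR45999 and asRNA:CR46145 (FER, a tyrosine kinase gene). The weakest 7, from 89.3 to 134, lay at asRNA:CR43469, asRNA:CR44031, asRNA:CR45136, asRNA:CR45124, asRNA:CR45467, asRNA:CR46194 and asRNA:CR44114. Of the 16, 9 lay inside a coding gene and antisense to it, and asRNA:CR46194, within Oda, lay in sense to its host as annotated.

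Summits of non-coding promoter regions were spread widely around the start site. In the IDR list 64 of 113 were upstream of the TSS (56.6%, 47.0 to 65.9%), against 1481 of 1823 coding promoter regions (81.2%, 79.4 to 83.01%). Within 100 bp of the TSS were 19 of the 113 (16.8%), against 758 coding promoter regions (41.6%). Among lower-ranked members 154 of 591 (26.1%) were that close, and an even spread over the window would give 20.1%. The median position was -62 bp (95% interval -120 to 25 bp), with quartiles at -221 and 242 bp, against a median of -101 bp for coding promoters. Among the 3869 strongest regions of replicate 1, 53.3% of members were upstream, against 70.6% of coding promoter regions, and in replicate 3 63.9% against 86.3%. Within 100 bp of the TSS were 21.3% of members against 45.1% of coding promoter regions in replicate 1, and 19.6% against 39.7% in replicate 3. Coding promoter summits were thus within 100 bp of the TSS more often than those of members in both replicates.

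**Figure D2:**
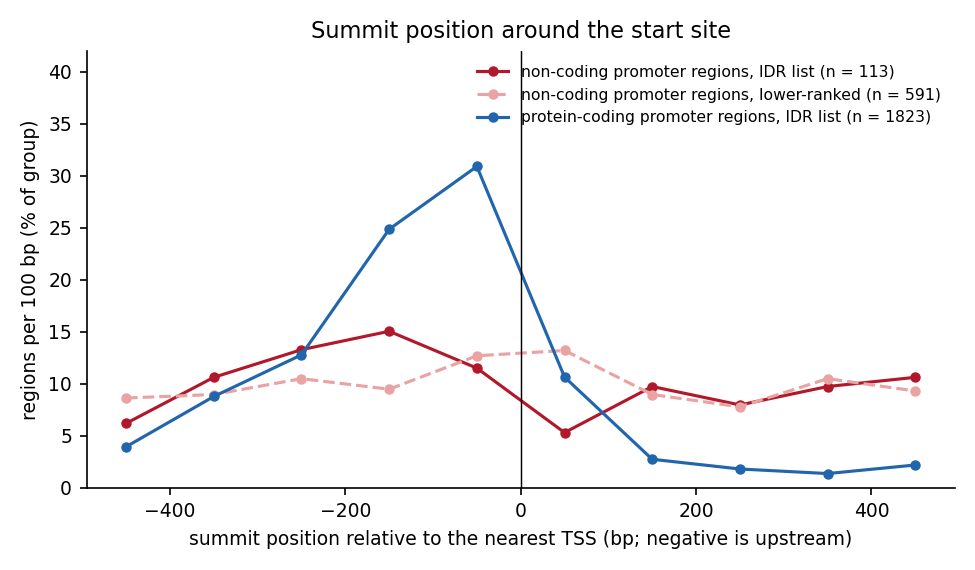
Summit position relative to the nearest TSS, in bins of 100 bp, as a percentage of each group: the 113 non-coding promoter regions of the IDR list, the 591 of lower rank, and the 1823 coding promoter regions of the IDR list. The coding promoters peak at 30.9% in the last 100 bp before the TSS, where the non-coding ones have 11.5%, and the non-coding ones hold 5.31 to 15.04% in every bin.

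Closeness to the annotated TSS did not go with a higher share in the IDR list among the members. Of the 173 within 100 bp of the TSS, 19 were in the IDR list (11.0%, 6.74 to 16.6%), against 94 of the 531 farther away (17.7%, 14.5 to 21.2%), and these intervals overlap. For coding promoter regions the shares were 28.1% within 100 bp and 26.3% farther away. Upstream and downstream members had 17.7% and 14.3%, a difference much smaller than between upstream and downstream coding promoter regions, 34.7% and 13.8%.

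The share in the IDR list was highest for members closest to a coding gene. It was 26.7% (17.9 to 37.0%) for the 90 members with a coding TSS at 501 to 1000 bp, 18.4% (12.04 to 26.3%) for 125 beyond 1000 and up to 2000 bp and 17.97% (13.1 to 23.7%) for 217 up to 5000 bp. For 230 members up to 20000 bp it was 9.57% (6.09 to 14.1%), and for 42 farther away 11.9% (3.98 to 25.6%). Distal regions at the same distances had 14.6%, 12.5%, 8.89%, 6.80% and 3.39%. Members were above distal regions in all 5 ranges, and the intervals were apart in the nearest range and in that from 2000 to 5000 bp. Both classes had higher shares within 5000 bp of a coding TSS than beyond it.

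**Figure D3:**
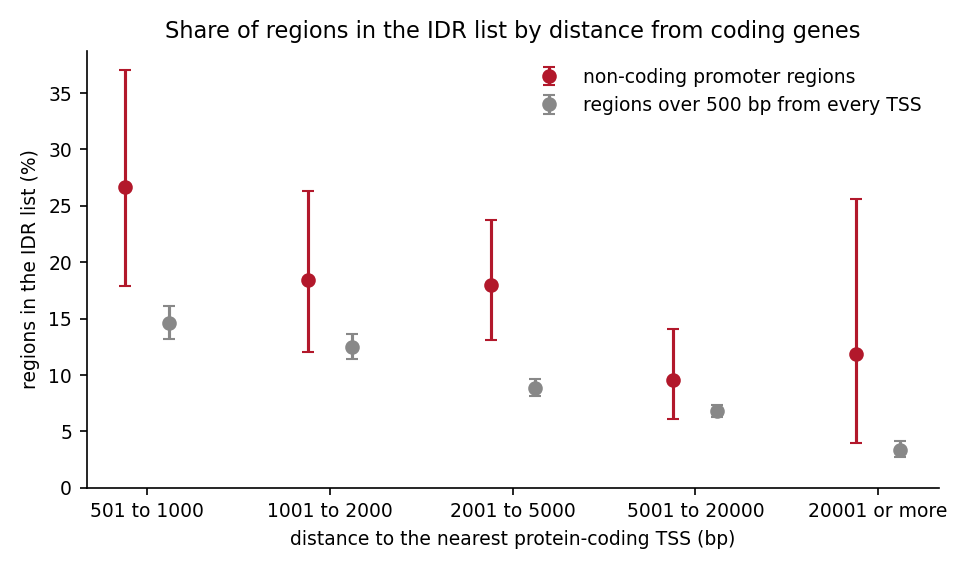
Percentage of regions in the IDR list by distance from the summit to the nearest protein-coding TSS, for non-coding promoter regions and for distal regions; bars are exact binomial 95% intervals for counting error. Non-coding promoter regions run from 26.7% at 501 to 1000 bp to 9.57% between 5000 and 20000 bp and stand above distal regions, 14.6% and 6.80%, at both.

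Most members lay outside coding genes, 473 of 704, with 70 of them in the IDR list (14.8%, 11.7 to 18.3%). Another 202 lay in introns of coding genes, with 39 in the IDR list (19.3%, 14.1 to 25.4%). In UTR exons lay 19, with 3 in the IDR list, and in coding exons 10, with 1. Among members inside a coding gene, 176 were antisense to it with 33 in the IDR list (18.8%), and 54 were in sense with 10 (18.5%). The shares for the 2 orientations were nearly equal, with wide intervals (13.3 to 25.3% antisense and 9.25 to 31.4% sense).

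Shares varied between chromosome arms over a wider range among members than among all pooled regions. In the IDR list were 8 of 28 members on chromosome 4 (28.6%, 13.2 to 48.7%), 29 of 121 on 2R (23.97%, 16.7 to 32.6%), 30 of 171 on 2L (17.5%), 11 of 71 on X (15.5%), 21 of 138 on 3R (15.2%) and 14 of 175 on 3L (8.0%, 4.44 to 13.1%). All pooled regions had 11.7 to 14.2% on these arms. There were 28 to 175 members on an arm, against 830 to 7013 pooled regions, so counting error alone widens the range of members. The intervals of chromosome 4 and 2R lay above that of 3L, and all other pairs of arms overlapped.

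Chromosome 4, the small arm that is largely packed as heterochromatin, also separated the replicates. All 8 of its IDR members ranked higher in replicate 1, with a median rank of 528.5 against 3543.5 in replicate 3. asRNA:CR44030 had ranks 267 and 510 in replicate 1 and 1769 and 2556 in replicate 3, and asRNA:CR43425 had 382 and 2260. lncRNA:CR46488, named after its values were seen, had a pooled signal of 286, with 238 in replicate 1 and 49.4 in replicate 3. The most unequal was asRNA:CR44031, at +1 bp, with 150 in replicate 1 (rank 687) and 14.9 in replicate 3 (rank 15990), where the nearest summit was 333 bp away. On the other arms 35.7 to 52.4% of IDR members ranked higher in replicate 1. Of the 118 IDR regions of chromosome 4, 109 overlapped a region in both replicate lists, and 92 of these (84.4%) ranked higher in replicate 1. Its source was not tested.

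All 113 IDR members overlapped a region in the full list of each replicate, against 93.4% of all IDR regions, 90.6% of coding promoters and 95.7% of distal regions. Their summits lay a median of 7 bp from that in replicate 1 and 25 bp in replicate 3. The distance was over 100 bp for 3 of them in replicate 1 and 8 in replicate 3, and a value taken from so far may belong to a neighbouring summit. One such was a second region of lncRNA:CR31840, at -180 bp with a pooled signal of 176, which shared its replicate 3 region with the strongest member. Among the 3869 strongest regions of a replicate, 69 of the 113 (61.1%, 51.4 to 70.1%) stood in both, 24 in replicate 1 alone, 15 in replicate 3 alone and 5 in neither. The share in both was 56.2% for all IDR regions, 57.8% for coding promoters and 54.4% for distal regions, so that of members was near the background. The median rank was 1568 (9 to 20059) in replicate 1 and 2013 (18 to 18329) in replicate 3. Ranks beyond 10000 in a replicate were found for lncRNA:CR44365, lncRNA:CR43626 and lncRNA:CR44868 in replicate 1. In replicate 3 they were found for lncRNA:CR43431, asRNA:CR44031, lncRNA:CR45354 and lncRNA:CR9162.

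**Figure D4:**
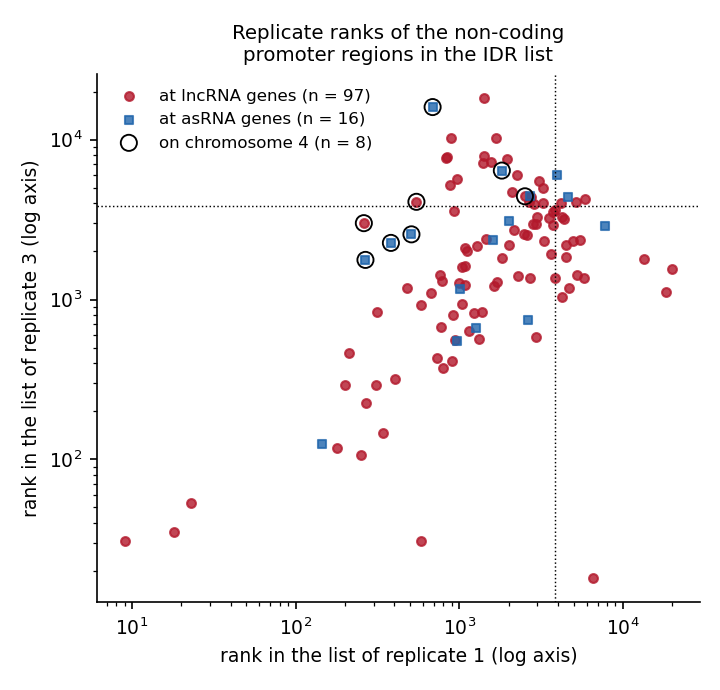
Rank of each of the 113 non-coding promoter regions of the IDR list in the list of replicate 1 (horizontal, log axis) and of replicate 3 (vertical, log axis), with rank 1 the highest signal; dotted lines mark rank 3869 and rings the 8 regions on chromosome 4. All 8 ringed points rank higher in replicate 1, 69 points lie below both lines, and the lowest point is lncRNA:CR44619 with rank 6531 in replicate 1 and 18 in replicate 3.

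Of 26 characterised non-coding RNAs that were listed, 16 are annotated under the prefixes used. Of these, 9 had a non-coding promoter region and 1, Hsromega, had such regions in the IDR list. All 16 carry the prefix lncRNA:. Of all 1947 annotated lncRNA genes, 485 were the nearest non-coding gene of a member, and 86 that of an IDR member. Whether 1 of 9 differs from 86 of 485 was not tested, and 9 genes are few for such a comparison. The Hsromega region at +157 bp had a pooled signal of 241 (rank 801), 142 in replicate 1 and 88.4 in replicate 3. The region at -135 bp from another TSS of the gene had 119 (rank 2538), 57.8 in replicate 1 and 42.5 in replicate 3. The nearest coding TSS, that of SIFaR, was 2286 bp away from the first. Both Hsromega regions were among the 3869 strongest of each replicate. That at +157 bp ranked 789 in replicate 1 and 1304 in replicate 3. The one at -135 bp passed narrowly, with ranks 3851 and 3624 in that order.

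The promoter of flam, the source of piRNAs that silence transposons in ovarian somatic cells, stood at rank 3876 with a signal of 88.7, just below the last IDR region. It had 71.3 in replicate 1 (rank 2709) and 26.2 in replicate 3 (rank 6537). roX2 had 69.8 (rank 5305), with 73.0 in replicate 1 and no overlapping region in replicate 3, and roX1 had no pooled region at a TSS. The Hox cluster RNA iab8 had 64.5 (rank 5851), yar 60.05 (rank 6459, with no region in replicate 3) and acal, which acts in JNK signalling during dorsal closure, 53.1 (rank 7542). sphinx, an RNA gene involved in male courtship, had 4 members with at most 49.4, Vinr had 27.9 and dntRL 22.9. The regions at start sites of these 8 genes all fell outside the IDR list. For bxd, iab4, let7C, cherub, CRG and noe, as for roX1, no pooled region lay at a TSS. A region that is not listed gives no upper limit on binding, since the list ends at 30000 regions and depth is unknown.

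DNA under the summits of IDR members was poorer in G and C than nearby DNA, as it was for the other classes. The 50 bp on either side of the summit had a median GC content of 32.7%, against 38.6% in a window of the same width 500 bp towards lower coordinates, and 72 of 113 summits were below their own comparison window. The median difference within regions was -6.93 percentage points (-9.90 to -2.97), against -6.93 for coding promoters and -5.94 for distal regions of the IDR list. The 591 members of lower rank had a difference of 1.98 (0.990 to 2.97), of the opposite sign, and lower-ranked coding promoters had the same 1.98. Among the 3869 strongest regions of replicate 1 members had -1.98, as did coding promoters. In replicate 3 members had -8.91 and coding promoters -11.9. The members' difference was larger in replicate 3, with an interval of -11.9 to -3.96 that overlaps the -6.93 to 2.97 of replicate 1.

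Short sequence words were counted on both strands in the same windows. The words had been looked at before in these data and support nothing by themselves. TATAAA was present in 24 of 113 IDR members (21.2%, 14.1 to 29.9%) and 22 of their comparison windows, against 9.81% of lower-ranked members, 19.9% of coding promoters in the IDR list and 13.5% of all pooled regions. CAGTG was in 22 IDR members (19.5%, 12.6 to 27.98%) and 7 comparison windows, but also in 21.4% of coding promoters, 22.3% of distal regions and 20.9% of all pooled regions. TATCGATA, the DNA replication-related element bound by DREF, was in none of the 113 (exact upper limit 3.21%) and in 2 comparison windows. TATCGATA was in 3.35% of coding promoters, 0.365% of distal regions and 0.743% of all pooled regions, so distal regions were poor in it too. TCGATA, which lies within TATCGATA, was in 4 (3.54%), against 9.38% of coding promoters, 3.75% of distal regions and 4.65% of all pooled regions. GGTCACAC was in none, against 1.21% of coding promoters, 0.156% of distal regions and 0.60% of all pooled regions, and all of these shares lie below the exact upper limit of 3.21% for 0 of 113. GAGAG, the word of GAGA factor, was in 16 (14.2%), against 13.4% of all pooled regions. ACAGTGG, which overlaps CACAGTG in part, was in 3, CAGCTG in 2, CACGTG in 1 and CAGGTAG in none, against 2.13%, 4.61%, 1.21% and 0.453% of all pooled regions in that order. A word missing from these windows says nothing of the factor.

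CACAGTG, which contains CAGTG, was present in 6 of 113 IDR members (5.31%, 1.97 to 11.2%) and in none of their comparison windows, against 3.40% of coding promoters in the IDR list and 2.06% of all pooled regions. Its windows at lncRNA:CR44363, lncRNA:CR45355 and the region of lncRNA:CR43626 at -183 bp are shown to compare with that of Hsromega at -135 bp given above, in the same orientation and with the word, or its reverse complement, in capitals.
lncRNA:CR44363, 3L:11405951-11406051, plus strand: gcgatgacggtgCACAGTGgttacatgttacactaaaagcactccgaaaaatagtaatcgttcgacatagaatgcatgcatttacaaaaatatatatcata
lncRNA:CR45355, 2L:16535220-16535320, minus strand: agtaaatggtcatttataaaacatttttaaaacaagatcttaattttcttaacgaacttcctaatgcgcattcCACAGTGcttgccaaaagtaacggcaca
lncRNA:CR43626, 3L:3250361-3250461, plus strand: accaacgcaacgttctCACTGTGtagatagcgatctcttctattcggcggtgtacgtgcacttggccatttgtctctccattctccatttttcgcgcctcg

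These 3 regions had pooled signals of 328, 125 and 104. lncRNA:CR45355, named for this word after its values were seen, lay at -42 bp. The word stood at different places in the windows and on both strands, and the interval of the share reaches down to the 2.06% of all regions.

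The values on either side of the distance limits were as follows. Just inside the non-coding limit, at 497 to 499 bp, lncRNA:CR45303, lncRNA:CR44278 and lncRNA:CR45386 had pooled signals of 55.9, 18.2 and 29.8. Just outside it, at 501 to 503 bp, lncRNA:CR41257, lncRNA:CR44591 and lncRNA:CR44619 had 214, 17.4 and 674, the first and last in the IDR list. Just inside the coding limit, lncRNA:CR43644, lncRNA:CR46207 and lncRNA:CR43493, at 515 or 516 bp from a coding TSS, had 464, 20.4 and 88.8. Just outside it, at 465 to 493 bp, asRNA:CR45108, lncRNA:CR44748 and lncRNA:CR44498 had 54.7, 22.8 and 85.8. The regions in the IDR list stood outside the non-coding limit and inside the coding limit, and the 6 on the opposite sides were all below it.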

How the data were processed

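CG11723-GFP ChIP-seq regions in narrowPeak format on dm6 were used as the authors deposited them, and the dm3 lists were not used. Per the submitters' file notes, 30000 regions were listed for each replicate and for the pooled alignments, with a control, and the IDR list was derived from these. Aligner, caller and IDR cutoff: not given in the sources used here. Each region's deposited signal value is a score of unstated scale and ranks regions within a list.

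Summits and TSSs were joined with python 3.11.15, numpy 2.4.6, pandas 2.3.3, scipy 1.17.1 and matplotlib 3.10.9. Gene models came from Ensembl release 115 (18358 genes without transposable elements, 13986 of them coding), every transcript start was used, and sequence came from RefSeq Release 6. IDR membership required the same start, end and summit as in the pooled list. A replicate's value came from the overlapping region (at least 1 bp) with the nearest summit. Shares carry Clopper-Pearson intervals and medians order-statistic intervals, both at 95%. The 704 members fell into 585 blocks of overlapping regions, so neighbouring members can share signal. The scripts were tested on simulated data.

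Members and lists were chosen with earlier results of these data known. Named are the genes of the 15 strongest IDR members, every asRNA gene with an IDR member, characterised genes with a pooled region at a TSS, the 3 members nearest to each limit, and genes with 3 or more IDR members. Any other name was picked with its values in view, including those with a replicate rank beyond 10000. Replicate ranks by arm and summits that share a region were compared after the data were seen. Alternatives changed the windows, the coding limit, the TSSs, the gene class, overlapping regions, the call rule, the sequence window and the replicate.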

Additional observations from a re-analysis of the deposited data

How the results depend on the processing

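Of 62 alternative values, 45 stayed within the error of the value reported or, for counts, within 1.5 times of it, 17 moved and 0 reversed. Reversed meant a change of sign, which only the GC difference could show, since counts, shares and median signals are never negative. A change of the TSS window also set the coding limit to the same distance. At 200 bp, members could therefore lie closer to a coding TSS than the main rule allows. With a replicate left out, the 3869 strongest regions of the other replicate's own list stood in for the IDR list. The count of IDR members was 66 at 200 bp and 66 with only the upper part of the IDR list by signal, against 113. It was 97 to 122 when a replicate was left out. The IDR share of members was 9.38% with the upper part of the list. With a replicate left out, 14.7 to 17.8% of the members in the other replicate's own list were among its strongest regions. The IDR share of coding promoter regions was 30.2% at 200 bp, 23.8% at 1000 bp, 28.8% with outermost TSSs, 31.7% with 1 region per block, 15.4% with the upper part and 24.1 to 31.9% with a replicate left out. It was above that of members in each of these. The median signal of IDR members was 235 with the upper part, and 77.8 to 88.9 on the scale of the replicates' own lists. The upstream share of members stayed between 53.3 and 63.9%. The median GC difference was -2.48 at 200 bp and -8.91 to -1.98 with a replicate left out, and in the first case and without replicate 3 its interval (-8.91 to 2.97 and -6.93 to 2.97) included 0. With windows of 100 bp on either side of the summit CAGTG was in 45.1% and TATAAA in 33.6% of IDR members, as wider windows hold more words. Matching by overlap put 152 members in the IDR list. Taking the overlapping replicate region of best rank, an alternative chosen after seeing the data, put 66.4% of IDR members among the strongest of both replicates, against 61.1%. No paired analysis was possible because the series has 1 group. Depth is unknown, no control sample was analysed here, and the causes of the moves were not tested.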
